A study of Mus musculus with 16 samples.

Results

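The sunitinib effect shared by the 2 white fat depots was defined per gene as the mean of 2 differences: sunitinib minus vehicle in epididymal fat, and sunitinib minus vehicle in inguinal fat. Of 20861 genes present in both depot tables, 14352 had a mean of at least 3 in each and were tested. In 3008 of them the sunitinib libraries did not overlap with the vehicle libraries in either depot and differed in the same direction (below, "on the same side"), which is 21.0% of the genes tested: 1203 higher (8.38%) and 1805 lower (12.6%). A further 828 genes (5.77%) lay on opposite sides in the depots. The mean of 3 separated genes of similar level: Spry3, Ptchd1 and Adh4 were just inside with means of 3.02, 3.02 and 3.03 in the depot where each was lower, and Slc16a8, Ghrh and Megf11, at 2.99 each, were left out.

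All mice were C57BL/6 animals aged 24 weeks. The 4 groups used were epididymal white fat from vehicle-treated mice, epididymal white fat from mice given sunitinib (sold as Sutent), inguinal white fat from vehicle-treated mice, and inguinal white fat from mice given sunitinib, with 2 libraries each. Brown fat and liver had the same layout and served as tissues outside the definition. The labels give no dose, route, duration, diet or sex, and the series had 8 mice, 4 per treatment. Which mice gave these libraries, and whether a mouse gave fat from both depots, is not in the labels. The p-values therefore measure the spread between these libraries, some of which may come from the same animal. Values are regularized log2 (rlog) counts, so a difference of 1 is a doubling, and each depot was normalized in its own table; the depth of each library is unknown.

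Sunitinib is an inhibitor of several receptor tyrosine kinases, among them the receptors for vascular endothelial growth factor, for platelet-derived growth factor and for colony-stimulating factor 1, together with Kit, Flt3 and Ret. Endothelial cells depend on the vascular endothelial growth factor receptors, pericytes and fibroblasts on the platelet-derived growth factor receptors, and macrophages on the colony-stimulating factor 1 receptor. White fat holds all of these cells among its adipocytes, and leptin made by adipocytes follows fat mass and adipocyte size.

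All 8 libraries carried the adipocyte signature: Adipoq, which encodes adiponectin, ranged from 15.6 to 16.2 and Plin1, which encodes the lipid droplet coat protein perilipin 1, from 13.8 to 14.2. Epididymal libraries held the mesothelial genes Msln, Upk3b and Wt1, whereas Wt1 was near 0 in every inguinal library, which separates the depots as labelled. Inguinal libraries also differed in other tissue. The summed level of the skeletal muscle genes was 18.25 and 16.85 in the vehicle libraries and 16.44 and 13.41 in the sunitinib libraries, against 11.1 to 11.5 across the epididymal libraries. The summed level of the B and T lymphocyte genes was 9.66 and 10.08 in the inguinal vehicle libraries and 10.87 and 14.01 in the sunitinib libraries, against 9.25 to 9.57 in epididymal fat. The second inguinal sunitinib library thus had the highest lymphocyte level of the 8. The first epididymal sunitinib library stood apart for Crisp1, a gene of the epididymal duct, at 12.66 against 5.98 to 6.21, and the summed level of the pericyte and smooth muscle genes was 15.63 there against 14.42 to 14.67 in the other epididymal libraries. The summed level of the epithelial genes was 10.14 and 10.85 in the epididymal vehicle libraries and 11.98 and 11.88 in the sunitinib libraries, and that of the mesothelial genes 10.52 and 10.38 against 11.39 and 11.02. Muscle and lymphocyte genes thus moved with treatment in inguinal fat, and epithelial and mesothelial genes in epididymal fat; their part in the differences of either depot was not tested. The standard deviation of the difference between replicates across genes was 0.137 and 0.202 in the epididymal vehicle and sunitinib groups and 0.210 and 0.564 in the inguinal ones.

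**Figure D1:**
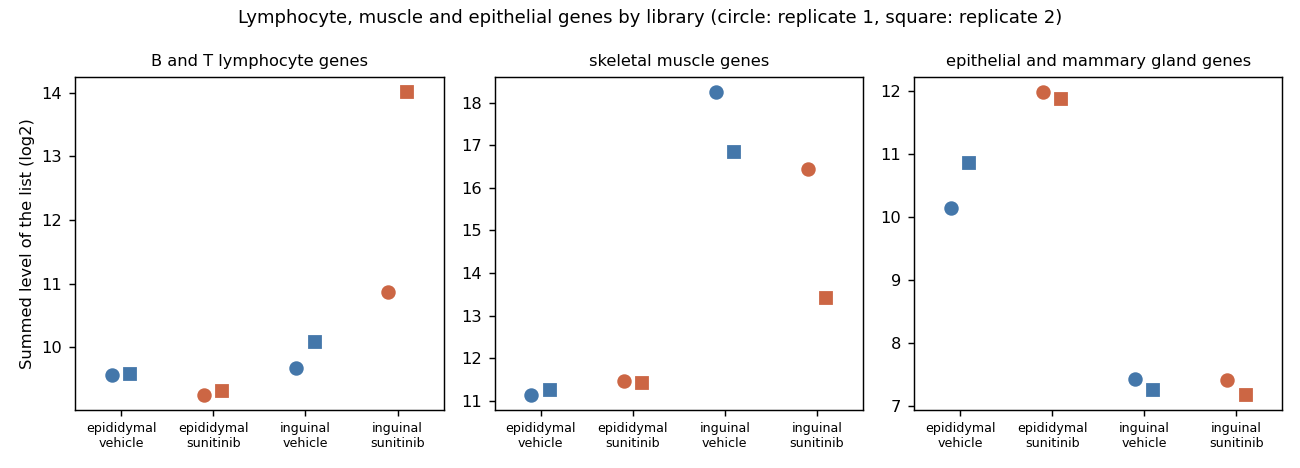
Summed level (log2, vertical axis) of the lymphocyte, skeletal muscle and epithelial gene lists in each white fat library, blue for vehicle and orange for sunitinib, circles for replicate 1 and squares for replicate 2. The second inguinal sunitinib library has the highest lymphocyte level (14.01) and the lowest muscle level of the inguinal libraries (13.41).

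With all 8 libraries, more genes were called lower than higher. In the joint limma fit of all 8 libraries 611 genes passed an adjusted p below 0.05 (4.26% of those tested), 537 of them lower (3.74%) and 74 higher (0.516%); 508 lower genes (3.54%) and 63 higher genes (0.439%) also lay on the same side in both depots. The same-side condition reads the values that gave the test and adds no evidence of its own. The median shared effect was -0.49 among the 508 lower genes and 0.37 among the 63 higher genes, against 0.01 over all genes tested; 159 of the lower and 6 of the higher genes exceeded a 1.5-fold change, and 18 lower genes and 1 higher gene exceeded a 2-fold change. The inguinal difference was the larger of the 2 in 373 of the 508 lower genes and in 58 of the 63 higher genes.

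The remaining 40 genes passed the test on the mean without lying on the same side in both depots, and 29 of them were lower. They included the muscle genes Mb (myoglobin), with -3.74 in inguinal and -0.01 in epididymal fat, and Tnnt1 (a slow muscle troponin), with -1.55 and 0.09 in the same order. For these muscle genes the mean of the depots reports an inguinal difference alone. The epididymal fit on its own called 796 of the same genes (5.55%), 644 lower (4.49%) and 152 higher (1.06%), and 255 of the 611 shared calls were among them. That fit called 0 genes without either one of the epididymal vehicle libraries, and 363 when genes were filtered on the epididymal table alone. The inguinal fit on its own called 0 genes by limma, with a smallest adjusted p of 0.296, while 1853 genes had an unadjusted p below 0.05. The test of the difference between the depot effects called 0 genes, with a smallest adjusted p of 0.134 and 1443 genes at an unadjusted p below 0.05 (10.1%); this does not show that the depots responded alike.

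The calls rested on having all libraries of most groups. Of the 571 same-side calls (3.98% of the genes tested), 1 passed when the first epididymal vehicle library was left out, 0 passed without the second epididymal vehicle library, without either epididymal sunitinib library or without the first inguinal vehicle library, and 77 passed without the second inguinal vehicle library. All 571 passed without either inguinal sunitinib library, the group with the widest spread, with 3891 further genes called without the first and 2126 without the second. The balance of direction turned in one of these: without the first inguinal sunitinib library 2454 genes were higher and 2048 lower, while without the second 1059 were higher and 1678 lower. Over all genes tested, called or not, 7596 had a positive shared effect and 6756 a negative one. With the first epididymal and second inguinal sunitinib libraries both left out, 519 of the 571 passed. Unless another setting, tissue or set of libraries is named, every adjusted p below comes from the fit of all 8 libraries. Each shares this limit. Across all 14352 genes the epididymal and inguinal differences had a Pearson r of 0.177 and a Spearman rho of 0.268, described here without a test because genes within a library are not independent; r was 0.0315 without the first inguinal sunitinib library and 0.385 without the second.

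**Figure D2:**
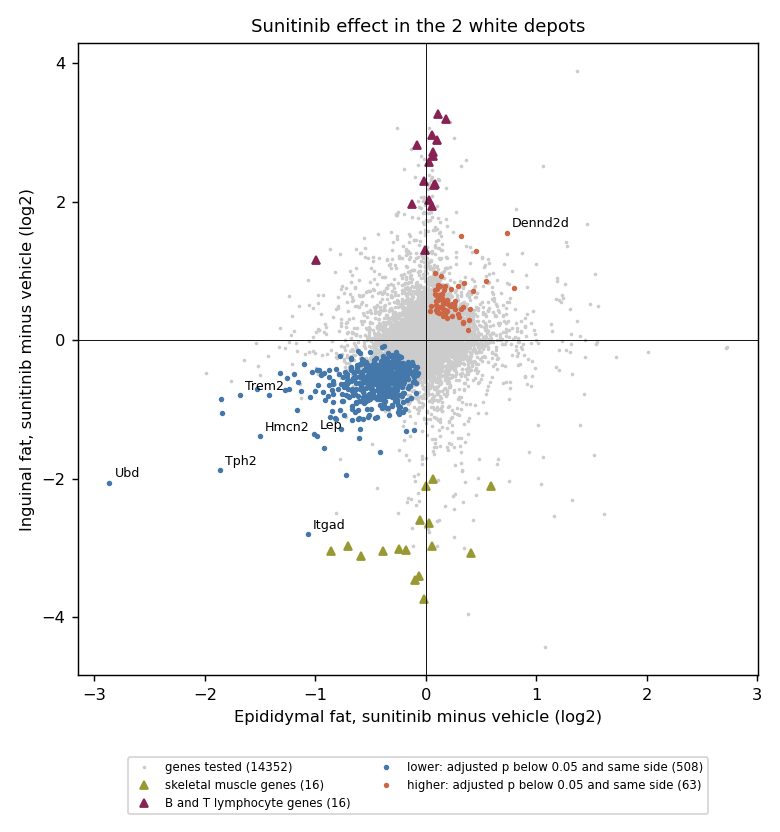
Sunitinib minus vehicle (log2) in epididymal fat (horizontal) and inguinal fat (vertical) for the 14352 genes tested; blue and orange points are the 508 lower and 63 higher genes that passed and lay on the same side, and triangles mark the muscle and lymphocyte lists. The triangles lie far out on the inguinal axis with smaller epididymal differences, away from the mass of blue points in the lower left.

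The largest fall was in Ubd, which encodes the ubiquitin-like modifier FAT10. It read 11.71 and 11.55 in epididymal vehicle libraries against 8.36 and 9.18 with sunitinib, and 11.19 and 10.73 in inguinal vehicle libraries against 8.51 and 9.29. The treated libraries were lower by more than 1 log2 unit in every case, and the shared effect was -2.46 ± 0.25 (SE, adjusted p = 0.0119). Tph2, which encodes a tryptophan hydroxylase that makes the serotonin precursor, went from 9.99 and 10.06 to 7.86 and 8.45 in epididymal fat and from 10.15 and 9.73 to 7.68 and 8.45 in inguinal fat. Its 2 depot differences were nearly equal, at -1.87 and -1.88. Itgad, an integrin alpha subunit of leukocytes, read 7.12 and 7.21 against 6.05 and 6.14 in epididymal fat and 9.66 and 8.45 against 5.60 and 6.90 in inguinal fat, a shared effect of -1.94 ± 0.36.

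Hmcn2, which encodes the extracellular matrix protein hemicentin 2, had the smallest adjusted p of all genes (0.00343). Epididymal values were 10.13 and 10.27 with vehicle and 8.70 and 8.69 with sunitinib, and inguinal values were 9.57 and 9.54 against 8.25 and 8.08, giving -1.45 ± 0.06. Its replicates lay close together beside treatment differences of at least 1.39. It was also the 1 gene still called without the first epididymal vehicle library (adjusted p = 0.0481); over all alternatives its adjusted p ran from 2.15e-05 to 0.0741. Lep, which encodes leptin, read 16.45 and 16.44 against 15.44 and 15.44 in epididymal fat and 16.24 and 16.60 against 14.95 and 15.17 in inguinal fat, a shared effect of -1.18 ± 0.13 (adjusted p = 0.0138). The treated libraries lay below the vehicle libraries in both depots, with mean differences of -1.01 and -1.36. Adipoq had a shared effect of -0.05 ± 0.16 (adjusted p = 0.861).

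The other genes among the 12 with the largest falls were Gpr50, an orphan G protein-coupled receptor (-1.45), Atp6v0d2, a subunit of the vacuolar proton pump (-1.35), the oxytocin receptor gene Oxtr (-1.34), the macrophage lipid receptor gene Trem2 (-1.24), the choline transporter gene Slc5a7 (-1.23), the collagen-binding endocytic receptor gene Mrc2 (-1.19) and Itgax, which encodes the integrin CD11c (-1.12). Oxtr was the least separated of these in epididymal fat, with 11.71 and 12.44 against 11.61 and 11.10.

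**Figure D3:**
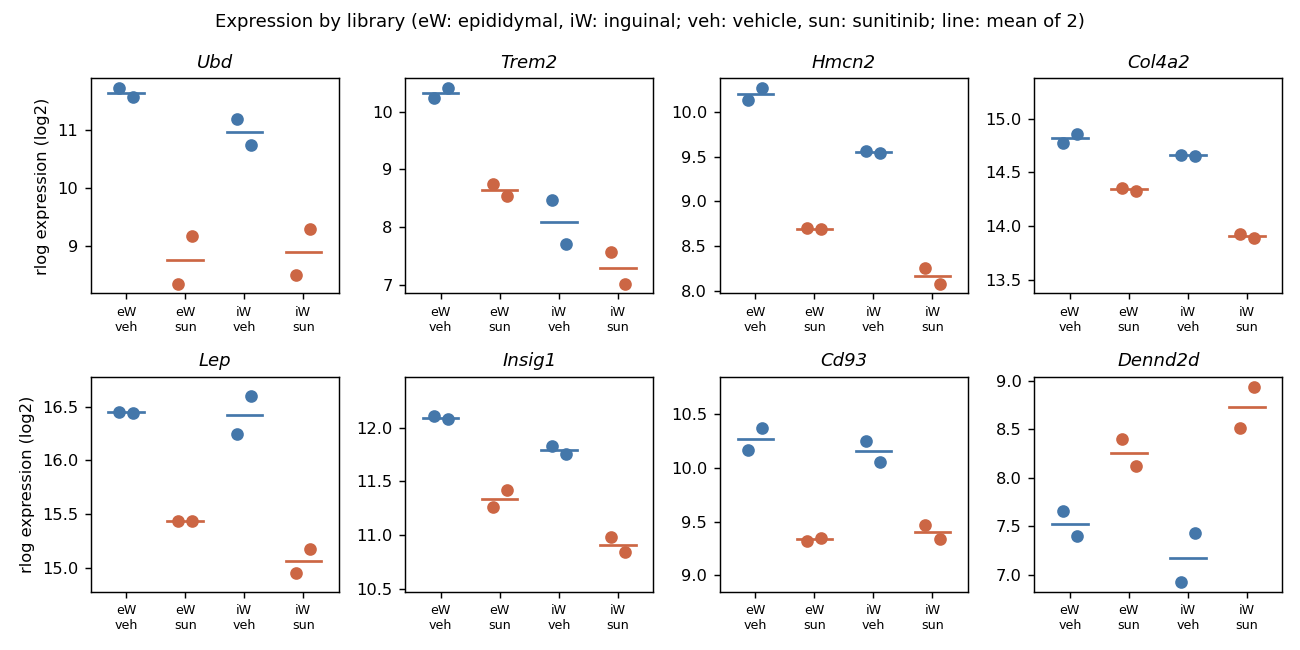
Expression (rlog, log2) of 8 genes in each white fat library, with points for libraries and lines for group means, on axes that do not start at 0. Every panel but the last shows sunitinib libraries below vehicle libraries in both depots; the last, Dennd2d, shows them above.

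Rises were fewer and smaller. Dennd2d, which encodes a protein with a DENN domain, led them with 7.66 and 7.40 against 8.40 and 8.12 in epididymal fat and 6.92 and 7.43 against 8.51 and 8.94 in inguinal fat, a shared effect of 1.14 ± 0.16 (adjusted p = 0.0237). Slc2a3, which encodes the glucose transporter GLUT3, rose evenly in the depots, by 0.79 and 0.75. Cbx7, a Polycomb group gene, rose by 0.46 and 1.29, and Cp, which encodes the copper-carrying oxidase ceruloplasmin, by 0.55 and 0.85 (adjusted p = 0.0497). Most others were carried by the inguinal difference: Peli1, an E3 ubiquitin ligase gene, had an epididymal difference of 0.13 beside an inguinal one of 0.93, and Atp10d, a phospholipid flippase gene, had 0.11 beside 0.79. Il17rb, Trim39, Prrt1, Cacna2d3, Prpf38b and Grik5 completed the 12 largest, with shared effects of 0.41 to 0.54. Across the 63 higher genes the median epididymal difference was 0.17 and the median inguinal one 0.52, and the part of the inguinal muscle and lymphocyte content in these rises was not tested.

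Among the 9 genes for kinases that sunitinib inhibits, 1 passed, against 3.74% of all genes called lower. Csf1r, the receptor on which macrophages depend, read 11.71 and 11.79 against 10.99 and 10.88 in epididymal fat and 11.02 and 10.87 against 10.33 and 10.74 in inguinal fat, with a shared effect of -0.61 ± 0.10 (adjusted p = 0.0318). The groups did not overlap, and the second inguinal sunitinib library lay nearest to the vehicle libraries. Pdgfrb, the receptor of pericytes, read 9.66 and 10.06 against 9.37 and 9.26, and 9.86 and 9.84 against 9.55 and 9.53, with -0.42 ± 0.09 (adjusted p = 0.0595). It lay on the same side in both depots without passing the test.

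The other kinase genes overlapped between treatments in at least one depot. Ret had -0.06 in epididymal and -1.01 in inguinal fat (adjusted p = 0.0525 for the mean). The vascular endothelial growth factor receptor genes Flt1, Kdr and Flt4 had shared effects of -0.35, -0.05 and 0.26, and Pdgfra and Kit had -0.11 and -0.23, with adjusted p from 0.22 to 0.844. Flt3 had 0.12, and its second inguinal sunitinib value of 7.13 stood against 4.87 in the first. Without the second library its shared effect was -0.44, and over all alternatives it ran from -0.45 to 0.69. Of 12 ligand genes for these receptors only Pdgfa passed, with -0.36 ± 0.07 (adjusted p = 0.0428). Vegfa, the main endothelial growth factor gene, had 0.52 ± 0.26 (adjusted p = 0.3) with one inguinal sunitinib library at 12.80 and the other at 11.53. Without the second it had 0.84, and over all alternatives its shared effect ran from 0.20 to 0.84.

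Many macrophage genes were lower in both depots. Of 22 tested, 11 passed, all lower, and 13 lay lower on the same side, with a median of -0.56 against 0.01 for all genes. The complement subunit genes C1qa, C1qb and C1qc had little spread between replicates. C1qb read 12.41 and 12.39 against 11.69 and 11.75 in epididymal fat and 11.38 and 11.30 against 10.93 and 10.90 in inguinal fat, a shared effect of -0.55 ± 0.05 (adjusted p = 0.0101). The 3 subunits had shared effects of -0.43, -0.55 and -0.51. Folr2, a folate receptor gene of resident tissue macrophages, fell by 0.68 ± 0.04, from 10.44 and 10.49 to 9.94 and 9.90 and from 9.66 and 9.60 to 8.82 and 8.82. Mrc1, Tyrobp, Cd68, Fcer1g and Cd163 were the other genes called, besides Csf1r and Itgax. Timd4 was the exception that lay higher on the same side without passing, and its value of 9.07 in the second inguinal sunitinib library stood against 6.48 in the first.

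The genes of lipid-associated macrophages, which collect around dying or overfilled adipocytes, had 10 of 19 called lower, 0 higher, and a median of -0.52. On the same side, 13 lay lower and 1 higher. The list's summed level was 18.09 to 18.89 across the white fat libraries, against 14.35 to 15.94 for the macrophage list. Which cells gave these transcripts was not tested. Trem2 read 10.24 and 10.41 against 8.75 and 8.54 in epididymal fat and 8.47 and 7.71 against 7.57 and 7.02 in inguinal fat. The inguinal groups were barely separated, and the shared effect was -1.24 ± 0.20 (adjusted p = 0.0313). Lgals3, which encodes galectin-3, fell by 1.24 and 0.71 and Lipa, which encodes lysosomal acid lipase, by 1.16 and 0.61. Plin2, a lipid droplet coat gene that adipocytes also express, went from 13.85 and 13.89 to 12.84 and 12.89 and from 13.47 and 13.33 to 12.76 and 12.57. Fabp5, a fatty acid carrier gene, fell by 0.72 and 0.80. In bulk tissue, fewer cells of a type and less RNA per cell cannot be told apart.

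The median of the macrophage list was -0.65 in epididymal and -0.37 in inguinal fat, side by side and with no test of the difference between these medians. Its summed level in the second inguinal sunitinib library, 14.94, lay between the vehicle libraries at 15.00 and 14.75, whereas epididymal sunitinib libraries, at 15.04 and 15.14, lay below 15.94 and 15.85. With that inguinal library left out the median of the list was -0.58. Of 13 antigen presentation genes 0 were called by limma (3 at an unadjusted p below 0.05), with medians of -0.67 in epididymal and 0.20 in inguinal fat. Of 28 proliferation genes 0 were called (1 at an unadjusted p below 0.05), with medians of -0.40 and 0.06. The epididymal fit on its own called 17 of these 28 and 7 of the 13 antigen presentation genes, against 5.55% of all genes. In inguinal fat the summed proliferation level was 12.28 and 12.13 with vehicle and 11.74 and 13.13 with sunitinib.

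**Figure D4:**
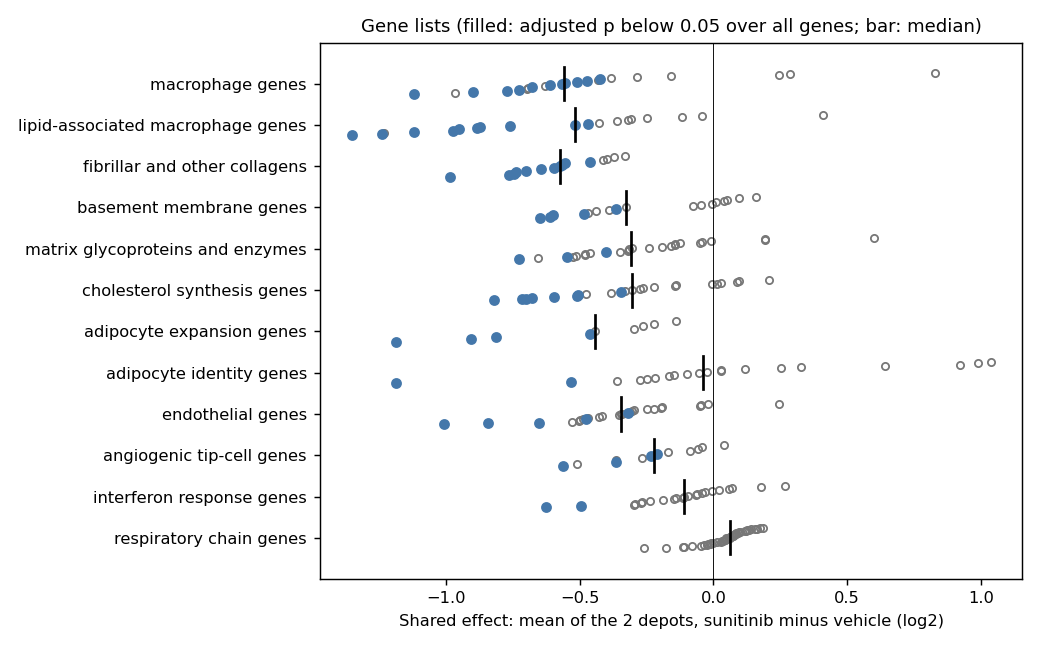
Shared effect (log2, horizontal axis) of each tested member of 12 gene lists, filled where the adjusted p over all genes was below 0.05, with a bar at the list's median. The macrophage and collagen lists have medians of -0.56 and -0.57, and the respiratory chain list has 0.06 and no filled point.

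Collagen genes were lower throughout. All 15 tested lay lower on the same side in both depots, and 11 passed, with a median of -0.57 and a range of -0.98 to -0.33. Col12a1, a fibril-associated collagen, had the largest fall, from 9.62 and 9.84 to 8.89 and 8.83 in epididymal fat and from 9.34 and 8.84 to 7.91 and 8.06 in inguinal fat (-0.98 ± 0.12, adjusted p = 0.0214). Col5a1, which regulates fibril diameter, fell by 0.57 ± 0.07, Col6a2, a subunit of the collagen that surrounds adipocytes, by 0.74 ± 0.11, and Col16a1 by 0.76 ± 0.11. The main fibrillar genes Col1a1 and Col3a1 were also called, at -0.55 and -0.70, while Col1a2, Col5a3, Col6a6 and Col8a1 did not pass. The epididymal median was -0.49 and the inguinal one -0.63; with the first epididymal and second inguinal sunitinib libraries both left out the shared median was -0.48.

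Basement membrane genes were lower in part. Of 17 tested, 5 passed, all lower, and the list's median was -0.33, or -0.16 after quantile normalization. Col4a2, a chain of the collagen network of the basement membrane, read 14.77 and 14.86 against 14.36 and 14.33 in epididymal fat and 14.66 and 14.66 against 13.93 and 13.89 in inguinal fat (-0.61 ± 0.07, adjusted p = 0.0155). Hspg2, which encodes the proteoglycan perlecan, read 14.48 and 14.47 against 13.88 and 13.93, and 14.39 and 14.40 against 13.92 and 13.62. Col4a1 fell by 0.48 and the nidogen gene Nid2 by 0.36, and Sparc, a collagen-binding protein gene, was also called. The laminin genes of the list did not pass, and neither did Col4a3, Col4a4 and Col4a5, whose shared effects were 0.05, 0.16 and -0.05. Lamb3, a laminin gene outside the list, was called lower (-0.61 ± 0.08, adjusted p = 0.0217). Of 26 genes for matrix glycoproteins and enzymes 3 passed: Postn, which encodes periostin (-0.73 ± 0.09), Loxl2, which cross-links collagen (-0.55), and the proteoglycan gene Bgn (-0.40). The median of that list was -0.31, and -0.18 with the first epididymal and second inguinal sunitinib libraries left out.

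Vascular genes were lower as well, with fewer calls. Of 26 endothelial genes 25 had a negative shared effect and 5 passed, with a median of -0.34. Cd93, a surface receptor of endothelial cells, read 10.17 and 10.37 against 9.32 and 9.35 in epididymal fat and 10.25 and 10.06 against 9.47 and 9.34 in inguinal fat (-0.84 ± 0.07, adjusted p = 0.0101). Aplnr, the apelin receptor of venous and sprouting endothelium, read 7.79 and 8.35 against 7.45 and 7.48, and 8.53 and 8.62 against 7.27 and 7.06 (-1.01 ± 0.13). Cdh5, the adhesion molecule of endothelial junctions, fell by 0.70 and 0.60, and Ramp2, part of the adrenomedullin receptor, by 0.16 and 0.48; Cldn5, a tight junction gene, was the fifth. Plvap, a gene of fenestrated and caveolar endothelium, had the only positive value, 0.25, and did not pass.

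The tip-cell list, genes of the leading cells of vessel sprouts, had 4 of 12 called lower. Dll4, the Notch ligand of tip cells, read 7.52 and 7.82 against 7.07 and 7.15 in epididymal fat and 8.31 and 8.28 against 7.63 and 7.84 in inguinal fat, a difference of -0.56 in each depot. Nid2, Kcne3 and Esm1 were the others, the last overlapping between treatments in epididymal fat. Apln, which encodes the ligand of Aplnr, had -0.14 and -0.88 (adjusted p = 0.0775 for the mean). Of 13 pericyte and smooth muscle genes only Rgs5, a pericyte marker, passed, with 10.87 and 11.14 against 10.28 and 10.32 in epididymal fat, and 11.64 and 11.73 against 10.87 and 10.89 in inguinal fat (-0.75 ± 0.07, adjusted p = 0.0101). The smooth muscle gene Cnn1, chosen after its values were seen, had the highest value of the 13, 1.32 ± 0.83 (adjusted p = 0.389), with 11.81 in the first epididymal sunitinib library against 6.59, 7.57 and 7.80 in the other epididymal libraries. The part of that library in the smooth muscle values was not tested. The summed level of skeletal muscle genes was lower with sunitinib in inguinal fat, as given above, and the part of this in the vascular values was not tested there. The endothelial median was -0.37 in epididymal and -0.33 in inguinal fat. Leaving out 1 library at a time, the shared endothelial median ran from -0.43 (first inguinal sunitinib library) to -0.26 (second epididymal vehicle library).

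Adipocyte genes did not move as a block. Of 20 adipocyte identity genes, 2 passed, Lep and Gpd1, and the median was -0.04, with a range of -0.16 to 0.09 when 1 library at a time was left out. Gpd1, which makes the glycerol backbone of triglycerides, read 14.25 and 14.30 against 13.67 and 13.80, and 14.36 and 14.46 against 14.06 and 13.71 (-0.53 ± 0.10, adjusted p = 0.0418). The 4 members below lay higher on the same side without passing: Cfd (adipsin) with 1.04, the beta 3 adrenergic receptor gene Adrb3 with 0.99 (adjusted p = 0.078), Pck1, a gene of glyceroneogenesis, with 0.92 (adjusted p = 0.0755), and Cidea, a lipid droplet fusion gene, with 0.64. Without the second inguinal sunitinib library Adrb3 had 1.23 and Pck1 had 1.09. Over all alternatives Adrb3 ran from 0.75 to 1.23 and Pck1 from 0.73 to 1.11.

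Genes that mark adipocyte enlargement were lower, leptin among them. All 9 tested had a negative shared effect, 4 passed, and the median was -0.44, or -0.24 after quantile normalization. Mest, which rises in expanding fat, read 13.70 and 13.78 against 12.99 and 13.01 in epididymal fat and 13.42 and 13.47 against 12.25 and 12.49 in inguinal fat (-0.91 ± 0.07, adjusted p = 0.0101). Sfrp5, a secreted Wnt antagonist gene, read 12.94 and 12.74 against 12.11 and 12.07, and 12.47 and 12.51 against 11.53 and 11.71 (-0.81 ± 0.07). Npr3, the natriuretic peptide clearance receptor gene, fell by 0.26 and 0.66. Among triglyceride synthesis genes Dgat2 and Mogat2, both acyltransferase genes, were called lower, at -0.63 and -0.54, while the fatty acid synthesis gene Acaca had 0.60 (adjusted p = 0.0536); the list of 23 had a median of -0.02, or 0.11 without the second inguinal sunitinib library.

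Cholesterol synthesis genes were lower in both depots. Of 23 tested, 8 passed, all lower, and 14 lay lower on the same side, with medians of -0.22 in epididymal and -0.48 in inguinal fat. Insig1, a sterol sensor that is itself a target of the sterol response, read 12.11 and 12.08 against 11.26 and 11.42 in epididymal fat and 11.83 and 11.76 against 10.98 and 10.84 in inguinal fat (-0.82 ± 0.06, adjusted p = 0.0101). Hmgcs1, which encodes the cytosolic synthase at the start of the pathway, read 12.80 and 12.79 against 12.16 and 12.41, and 12.57 and 12.70 against 11.69 and 11.89 (-0.68 ± 0.08). Lss, which closes the sterol rings, fell by 0.51 ± 0.05 and Dhcr7, which completes cholesterol, by 0.60 ± 0.07. Sc5d and Cyp51, which act on later sterol intermediates, were also called. Not every gene of the list moved: Sqle, which encodes squalene epoxidase, had a shared effect of -0.26 and Srebf2, the pathway's transcription factor gene, had 0.21, and neither passed.

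Because 14 of these 23 genes lay lower on the same side, promoter windows of the list were read from RefSeq (GRCm38.p6). Each window ran from 250 bases before to 50 after the annotated start in that build. This build differs from that of the deposited files, so the windows describe sequence only. Windows were present for 16 of the 23 genes. The CCAAT box (CCAAT on either strand) occurred in 14 of the 16 (87.5%) against 38.8% of the 9765 tested genes with a window and 37.9% of all 27025 windows. The sterol element core (CACCCCA on either strand) occurred in 3 of the 16 (18.8%) against 7.82% of the tested genes. Among the 363 called, same-side lower genes with a window, the CCAAT box occurred in 40.5% and the sterol core in 9.92%. Srebf2, whose shared effect was positive, also held both motifs. A match describes letters in a window and not a bound site. Capitals below mark both motifs, the CCAAT box in each case in its reverse form ATTGG, and no marked stretches overlap. Hmgcs1 is shown because it held both motifs (4 CCAAT boxes and 1 sterol core), Insig1 because it held a single CCAAT box and had the largest fall, and Dhcr7 because it fell with neither motif in its window. The windows lie at chr13:119690101-119690400, chr5:28071162-28071461 and chr7:143822917-143823216, all on the plus strand.
Hmgcs1: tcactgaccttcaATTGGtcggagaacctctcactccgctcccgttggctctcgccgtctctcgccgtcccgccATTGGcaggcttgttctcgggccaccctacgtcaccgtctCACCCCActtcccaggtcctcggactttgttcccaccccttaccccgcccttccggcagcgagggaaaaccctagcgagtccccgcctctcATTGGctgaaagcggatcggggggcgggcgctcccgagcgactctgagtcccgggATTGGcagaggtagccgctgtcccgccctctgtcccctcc
Insig1: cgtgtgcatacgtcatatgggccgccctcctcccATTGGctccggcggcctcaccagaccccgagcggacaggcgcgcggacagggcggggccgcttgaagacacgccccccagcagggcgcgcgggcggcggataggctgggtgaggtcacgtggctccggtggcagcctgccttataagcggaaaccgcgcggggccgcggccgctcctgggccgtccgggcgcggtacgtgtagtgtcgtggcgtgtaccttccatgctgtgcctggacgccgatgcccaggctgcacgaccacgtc
Dhcr7: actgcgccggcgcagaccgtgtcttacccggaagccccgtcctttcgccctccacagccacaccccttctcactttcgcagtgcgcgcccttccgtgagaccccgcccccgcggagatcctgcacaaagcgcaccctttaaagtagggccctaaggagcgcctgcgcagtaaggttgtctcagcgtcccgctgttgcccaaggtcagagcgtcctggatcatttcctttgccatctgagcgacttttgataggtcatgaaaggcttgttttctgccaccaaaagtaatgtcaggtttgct

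Other lists held few calls. Among 20 antioxidant genes 4 were called lower, the superoxide dismutase genes Sod3 (-0.52) and Sod2 (-0.40), the heme oxygenase gene Hmox1 (-0.70) and Srxn1 (-0.42), while the list's median was 0.00 and the glutathione transferase gene Gsta4 had 0.93 (adjusted p = 0.0503). Of 23 interferon response genes Rsad2 (-0.63) and Ifit3 (-0.50) were called, and of 20 hypoxia-inducible genes 2 were called lower, among them the glycolysis regulator gene Pfkfb3 (-0.49). In the list of natriuretic, insulin and growth hormone signalling genes Igfbp5 was called lower (-0.51) and Socs2, a feedback inhibitor of growth hormone signalling, higher (0.41), besides Npr3. Of 45 respiratory chain genes 0 passed in the limma fit (1 at an unadjusted p below 0.05), 0 lay on the same side in both depots, and their median was 0.06; over all genes 3231 (22.5%) had an unadjusted p below 0.05.

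Brown fat and liver were not used to choose the genes. The series had 16 libraries from 8 mice, so some libraries must come from the same animal. The main fits took all libraries as independent, and which of them share a mouse is not known. In brown fat, where limma called 0 of 13044 genes at an adjusted p below 0.05 and 2101 at an unadjusted p below 0.05, 471 of the 508 lower genes were tested. Of these, 312 also had a negative difference (66.2%, against 51.6% of all genes tested there), and in 181 (38.4%, against 24.0% of all genes) both sunitinib libraries lay below both vehicle libraries. In liver, where limma called 24 of 12394 genes (0.194%), 416 were tested, of which 250 were negative (60.1% against 48.6%) and 125 lay below (30.0% against 19.2%). Of the 63 higher genes, 16 of the 59 tested in brown fat lay above (27.1% against 26.2%) and 17 of 57 in liver (29.8% against 18.3%). Leptin in brown fat read 8.09 and 9.19 against 7.53 and 7.33, a difference of -1.21 ± 0.35 that did not pass (adjusted p = 0.241); the white minus brown difference was 0.02 ± 0.36 (adjusted p = 0.986).

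Most endothelial genes had differences of opposite sign in white and brown fat, and few of these passed a test. All 26 endothelial genes had a positive difference in brown fat, with a median of 0.36 beside -0.34 in white fat. In brown fat alone 0 passed by limma (15 at an unadjusted p below 0.05, against 16.1% of all genes). The test of the white minus the brown effect called 61 of 12558 genes (0.486%), all lower in white fat. Of these, 53 were among the 471 lower genes. That test includes the white fat libraries that chose the lower genes, so the selection favoured this overlap, which is no separate evidence. The 61 genes held 2 of the 26 endothelial genes and 3 of the 17 basement membrane genes. Cd93 read 9.46 and 9.15 against 9.99 and 9.79 in brown fat, a difference of 0.58 beside -0.84 in white fat (adjusted p of the difference 0.0217). Nid2, with 0.47 beside -0.36, had the same adjusted p. Dll4 had 0.53 beside -0.56 (adjusted p = 0.0328), Aplnr 0.38 beside -1.01 (adjusted p = 0.0362), Col4a2 0.29 beside -0.61 (adjusted p = 0.0347) and Hspg2 0.31 beside -0.60 (adjusted p = 0.037). Rgs5 had 0.02 beside -0.75 (adjusted p = 0.0428), and Ubd had -0.02 at a brown fat level of 3.18 to 3.34.

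These calls had the same weakness as the shared ones: 0 genes were called without the second epididymal vehicle library, either epididymal sunitinib library, the second brown fat vehicle library or either brown fat sunitinib library. Leaving out any 1 of the other vehicle libraries gave 3 to 18 genes, and leaving out the first or the second inguinal sunitinib library gave 1471 or 927. Against liver 25 of 11576 genes differed (0.216%), 21 of them among the 416 lower genes, and leaving out 1 library gave from 1 gene (without the second epididymal vehicle, first epididymal sunitinib, either liver vehicle library or the liver sunitinib library numbered 3) to 1483 (without the first inguinal sunitinib library). The white minus liver test also includes the white fat libraries that chose the lower genes, so the selection favoured its overlap with them. Hmcn2 was first in that test, with 0.04 in liver beside -1.45 (adjusted p = 0.00205), and Lep had 0.41 beside -1.18 (adjusted p = 0.0425). Cholesterol synthesis genes also leaned lower in liver: all 23 had a negative difference there, with a median of -0.34 beside -0.30 in white fat. In liver alone 0 passed by limma. An unadjusted p below 0.05 was reached there by 14 of the 23, against 905 of 11634 genes tested in white fat and liver. By the limma test of white minus liver 0 of the 23 differed (3 at an unadjusted p below 0.05, against 12.4% of all genes).

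**Figure D5:**
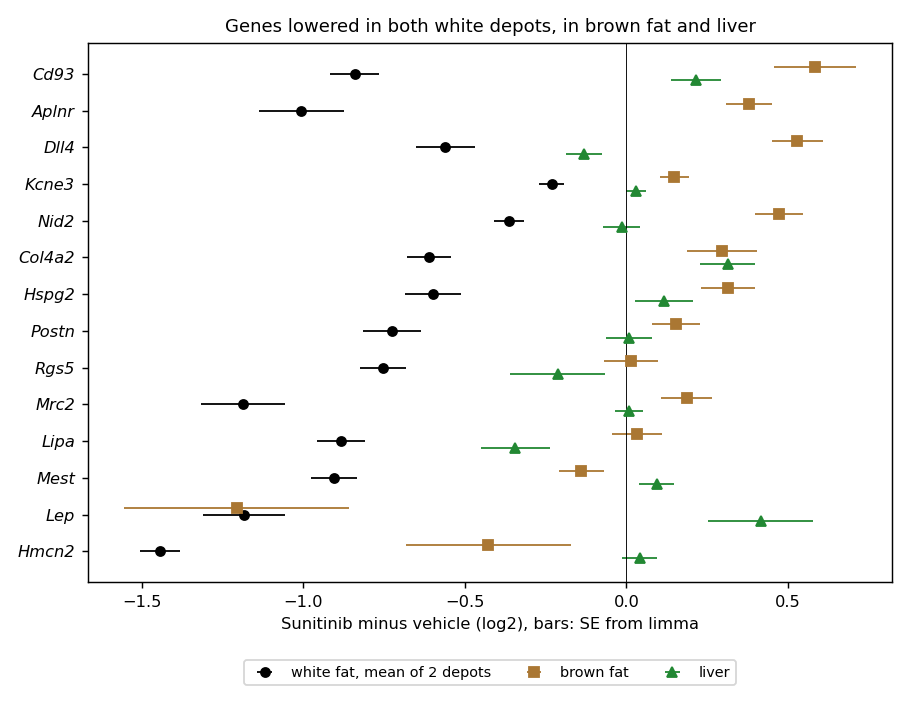
Sunitinib minus vehicle (log2, horizontal axis, bars are limma standard errors) for 14 genes that were lower in both white depots, as the mean of the white depots (circles), in brown fat (squares) and in liver (triangles, where tested). The endothelial and basement membrane genes in the upper rows lie below 0 in white fat and above 0 in brown fat, and Lep lies below 0 in both.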

How the data were processed

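RNA sequencing of total RNA (TRIzol extraction, per the labels' protocols) gave 4 deposited tables of regularized log2 (rlog) values, 1 per tissue, normalized by the authors within each tissue. The submitters' processing notes name bcl2fastq 2.17.1.14, TopHat2 2.1.1, bedtools, DESeq2 and the mm9 build; for annotation, counting rule and strand use: not given in the sources used here. The rlog transform shrinks differences of low genes, so their changes are understated. Total counts are not in these tables, so depth and counting error are unknown; the 2 libraries per group limit the precision.

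Genes with a mean of at least 3 in both white fat tables were fitted with limma 3.58.1 in R 4.3.3: means of the 4 groups, empirical Bayes with an intensity trend, two-sided tests, Benjamini-Hochberg adjustment over all genes tested and a threshold of 0.05. Only differences within a table entered. An exact permutation of libraries within depots could not go below p = 0.0556. Alternatives changed the filter, scaling, variance model, replicate pairing and the libraries used. The fit was also run on simulated data in which each gene had the same spread in every group. The real groups differed in spread, so the simulation did not check the fit for that.

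The genes described and the 42 gene lists were chosen with earlier results of these data known, and no list was tested as a set. Named genes were the 12 largest changes per direction that passed and lay on the same side (predicted names left out), the target kinases, and up to 4 members per list by p, same-side ones first; further list members are named to complete counts and were chosen after their values were seen. Brown fat and liver were compared over genes with a mean of at least 3 there too. Some genes of the lists are counted but their own values are not reported here.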

Additional observations from a re-analysis of the deposited data

Results flagged for a closer look

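Of the genes named, 14 had a sunitinib effect that differed between white fat (mean of the 2 depots) and brown fat, and 6 between white fat and liver, by a limma test of the difference itself at an adjusted p below 0.05. Both tests include the white fat libraries by which most of these genes were chosen, which favours such differences. The values are the white effect minus the other tissue's effect, in log2 with the SE. Against brown fat the vascular and basement membrane genes gave Aplnr -1.39 ± 0.20, Cd93 -1.43 ± 0.15, Col4a2 -0.91 ± 0.13, Dll4 -1.09 ± 0.14, Hspg2 -0.91 ± 0.13, Kcne3 -0.38 ± 0.06, Nid2 -0.84 ± 0.08, Rgs5 -0.77 ± 0.12. The others were Lipa -0.92 ± 0.12, Mest -0.77 ± 0.11, Mrc2 -1.37 ± 0.20, Postn -0.88 ± 0.14, Rsad2 -0.93 ± 0.15, Ubd -2.44 ± 0.37. Against liver the values were Cd93 -1.06 ± 0.13, Col4a2 -0.93 ± 0.10, Hmcn2 -1.49 ± 0.10, Lep -1.60 ± 0.24, Mest -0.9997 ± 0.10, Plin2 -0.90 ± 0.12. Adjusted p ran from 0.0217 to 0.0454 against brown fat and from 0.00205 to 0.0425 against liver. No group has enough libraries to judge a single library against its group.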

How the results depend on the processing

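Each alternative changed 1 choice; "shared" is the count of genes passing on the mean of the 2 depots (537 lower and 74 higher with all libraries and no change). The 571 called same-side genes kept their sign wherever they were tested (551 of them with a mean of at least 5), which their selection favours. Without the filter on low values 35 genes were higher, 335 passed in epididymal fat alone, 10 for the depot difference, 19 for white minus brown and 41 for white minus liver. With the filter on the depot's own table alone 363 passed in epididymal fat. With a mean of at least 5 the lipid-associated macrophage median was -0.64. Median centring gave 30 higher genes and 32 for white minus brown. Quantile normalization gave 1 gene for the depot difference, 38 for white minus brown and 3 for white minus liver, and medians of -0.36 (lipid-associated macrophage), -0.16 (basement membrane), -0.24 (adipocyte expansion) and 0.16 (antioxidant). Weighting the spread per depot gave 300 lower and 20 higher genes, 2 for the depot difference, 163 for white minus brown and 121 for white minus liver. Taking libraries of the same number as 1 animal gave 29 for white minus brown. The cause of these shifts was not tested.

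Replicate numbers were shared between groups, but the labels tie them to nothing, and the replicate differences correlated at 0.112 between the epididymal groups and 0.0383 between the inguinal ones, so the numbers were not taken as pairs. With the replicate block 231 genes were lower and 8 higher, 218 of the 571 still passed, 1197 passed in epididymal fat alone and 12 for white minus brown.

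Leaving out 1 library at a time gave ranges of 0 to 2048 lower and 0 to 2454 higher shared genes, 2058 to 2847 lower and 1508 to 2143 higher same-side genes (fewer libraries make separation easier), 0 to 3059 for the depot difference, 0 to 1008 in epididymal and 0 to 4210 in inguinal fat alone, 0 to 1471 for white minus brown and 1 to 1483 for white minus liver. Where this left 1 library in a group, that library was assumed to vary like the others. The list medians that moved by more than the spread ran from -0.38 to -0.25 (cholesterol synthesis), -0.075 to 0.11 (fatty acid and triglyceride synthesis), -0.23 to -0.049 (interferon response) and -0.70 to -0.48 (lipid-associated macrophage). Among the genes named, Kdr (-0.05) ran from -0.15 to 0.054, positive without the second epididymal vehicle library, the first epididymal sunitinib library or the second inguinal sunitinib library, and Flt3 (0.12) from -0.44, without the last of these, to 0.69.

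Leaving out the first epididymal and second inguinal sunitinib libraries together, chosen after seeing the data, gave 1057 lower and 568 higher shared genes, 3492 lower and 3000 higher same-side genes, 6 for the depot difference, 1171 in inguinal fat alone, 713 for white minus brown and 729 for white minus liver. The medians then were -0.18 (matrix glycoproteins and enzymes), -0.35 (cholesterol synthesis) and 0.10 (fatty acid and triglyceride synthesis), Kdr had 0.092 and Flt3 -0.45. Over all alternatives and the genes named, 1151 results kept direction and side of the threshold, 523 fell short of it, 46 newly passed and 6 changed sign. Depth could not be read from rlog values, so what it limits is unknown.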
